A study of Mus musculus with 2 samples.

Results

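The cells described here were 366 noncycling leukemic promyelocytes from mice treated with retinoic acid, caught between the first expression of late granule genes and full maturation. They were selected on their own transcript counts. From the retinoic acid library, barcodes were kept with at least 5000 UMIs (unique molecular identifiers, each marking 1 captured RNA molecule), at least 500 detected genes and 0.1 to 10% mitochondrial UMIs. Of these, cells were taken whose share of UMIs in Camp, Ngp, Ltf, Lcn2, S100a8 and S100a9, called M, was from 0.5 to below 10%. The noncycling cells held 0 UMIs of each of Mki67, Top2a, Birc5, Rrm2 and Cdk1, the 5 proliferation genes of the rule. They were 366 of 4206 cells in that range of M, of 6248 kept cells of the library, and of 13202 barcodes in both libraries. The other 3840 cells of the same range, with at least 1 such UMI, served as the comparison.

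Both libraries came from leukemic bone marrow of mice carrying progenitors transformed by the PLZF/RARA fusion, sorted for the late promyelocyte phenotype, positive for Cd45.2, C-Kit, Gr1 and FcγR and negative for Cd34. A cohort of 3 to 5 mice received intraperitoneal injections for 7 days. One group received 0.8 to 1 mg retinoic acid, and the vehicle group received corn oil with 10% DMSO. How many mice, of what strain and age, gave cells to each library was not given in the sources used here. With 1 library per group no difference has a replicate check and no test was made. Intervals are 95% exact intervals that cover counting error only.

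Neutrophil precursors divide through the promyelocyte and myelocyte stages and then leave the cell cycle while they replace primary granule proteins with secondary granule proteins. Entry into the cycle is marked by E2F targets that license and copy DNA, and passage to mitosis by a later set of genes for spindle, kinetochore and cyclin B proteins. Early G1 and quiescent cells hold little of either set, while a cell late in G1 already makes replication licensing transcripts. PLZF/RARA joins a transcriptional repressor to the retinoic acid receptor alpha and gives a leukemia that responds poorly to retinoic acid. EZH2 is the methyltransferase of Polycomb repressive complex 2 (PRC2), which marks silenced genes, and in many tissues its transcript follows proliferation.

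The noncycling cells were shallower than the cells they were compared with. Their median was 11253.5 UMIs and 2931.5 genes per cell, against 17507.5 UMIs and 3906.5 genes in the other cells. Mitochondrial UMIs had medians of 1.42% and 1.33%, and M had medians of 2.78 and 2.43. Ribosomal protein transcripts made up 27.6% and 24.8% of UMIs. Malat1, a nuclear RNA, stood at 2600 and 2057 counts per 1000000 UMIs. Because a shallow cell is more likely to show 0 UMIs of any gene, the comparison between these 2 groups was repeated at matched depth. It used 365 noncycling cells and 365 other cells, with medians of 11270 and 11251 UMIs. These depth-matched cells differed from the full comparison also in another way. They held a median of 5 UMIs of the 5 rule genes instead of 18, and 47.7% of them had 1 to 4 such UMIs instead of 22.7%. The part each of these had in a result was not tested. The 2 libraries shared 11 cell barcodes, 1 of them among the 366 cells.

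The labelled cell type and sort were checked against the transcripts. Promyelocyte markers were carried by 366 of 366 cells, led by the primary granule protease gene Elane with 38400 counts, but Mpo, the myeloperoxidase gene, had 0 counts. Of the genes behind the sorted antigens, Ptprc (CD45) stood at 117 CPM (counts per 1000000 UMIs of the summed cells; interval 107 to 128), and Kit at 24.1 CPM (19.6 to 29.3). Ly6g, part of the Gr1 antigen, stood at 66.2 CPM (58.6 to 74.5). The Fcγ receptor genes Fcgr3 and Fcgr2b stood at 92.4 and 119 CPM, and Cd34 had 0 counts, with an exact upper limit of 0.887 CPM. Few cells carried markers of another lineage together. Of the 366 cells 1 carried a set, of the eosinophil class, as did 12 of the 3840 other cells, of which 7 carried the mast or basophil, 4 the eosinophil and 1 the B cell set. Hba-a1, Cd3e, Cd74, C1qa, Cpa3 and Pf4 all had 0 counts in the noncycling cells. Single markers were present. Pecam1, of the endothelial list, stood at 83.0 CPM against 76.6 CPM in the other cells, and Mcpt8, of the mast or basophil list, at 66.4 and 74.7 CPM. Adgre1, of the macrophage list, stood at 13.95 and 4.06 CPM with 58 counts, and Vpreb1, of the B cell list, at 5.29 and 4.01 CPM. Mature neutrophil markers, led by Cd177, were carried by 134 noncycling cells (36.6%, interval 31.7 to 41.8%) and by 35.6% of the other cells. Of the 15 markers of this list 10 had counts in the noncycling cells, and the list summed to 530 CPM against 492 CPM in the other cells. Cxcr2 stood at 7.94 and 2.38 CPM with 33 counts, Padi4 at 58.2 and 49.7 CPM and Clec4d at 107.5 and 107.6 CPM. Mmp8, Mmp9, Fpr1, Fpr2 and Mmp25, which belong to late neutrophils, had 0 counts in the noncycling cells. These 5 reached at most 0.420 CPM (Mmp9) in the other cells, so their zeros do not set the groups apart.

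Noncycling cells were a small and nearly constant share of cells across the range of M. They made up 8.70% of the 4206 cells (interval 7.87 to 9.59%). The share was 7.46% of 697 cells with M of 0.5 to 1, 8.09% of 1051 cells with M of 1 to 2, 9.38% of 1536 cells with M of 2 to 5 and 9.22% of 922 cells with M of 5 to 10. Their intervals overlapped. Above the range the share was 35.0% of 1552 cells (32.6 to 37.4%), and below it 11.2% of 490 cells (8.57 to 14.4%). With each cell thinned to 5000 UMIs, 754 cells (17.9%, 16.8 to 19.1%) of the range showed 0 UMIs of the rule genes, and 42.8% of the cells with M of 10 or more. The share also differed by depth. It was 25.6% of 215 cells with 5000 to 8000 UMIs, 26.1% of 621 with 8000 to 12000, 11.6% of 1061 with 12000 to 16000 and 1.63% of 1596 with 16000 to 24000. None of 713 deeper cells qualified (upper limit 0.516%). In the vehicle library 1756 of 5146 kept cells (34.1%) were noncycling by the same 5 genes, and 46.0% after thinning, while only 185 vehicle cells lay in the range of M.

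**Figure D1:**
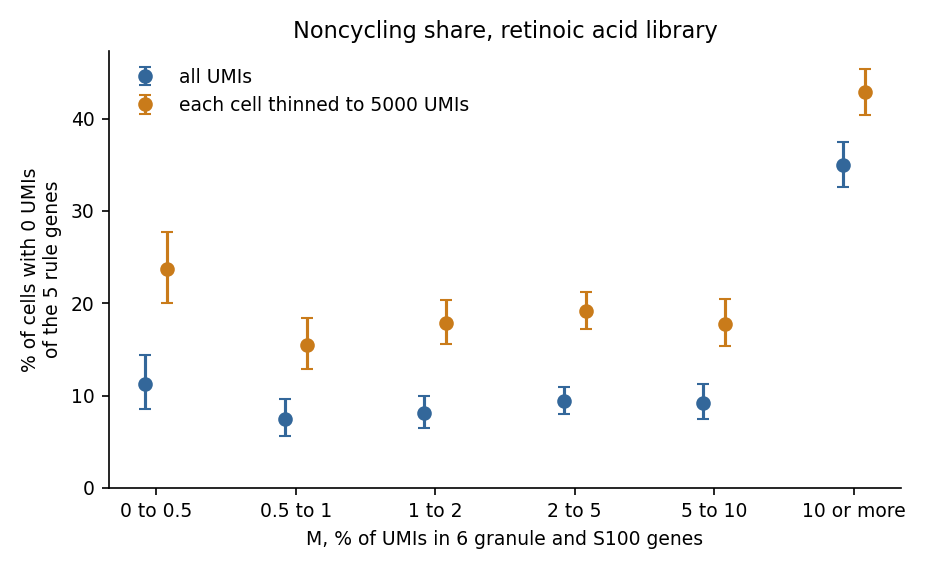
Share of cells with 0 UMIs of Mki67, Top2a, Birc5, Rrm2 and Cdk1 (y axis, %) in 6 ranges of M (x axis, %) of the retinoic acid library. Blue points use all UMIs and orange points use cells thinned to 5000 UMIs, with exact binomial intervals; the 4 middle ranges, which hold the 366 cells, sit between 7.46 and 9.38% in blue, and the last range at 35.0%.

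Cells just beyond the threshold differed from the members by degree. The 348 cells with 1 UMI of the rule genes had a median of 12261 UMIs and an Ezh2 level of 62.2 CPM, against 51.7 CPM in the members. Their summed levels of the G1/S and the G2/M list were 2609 and 2205 CPM, against 2093 and 1832 CPM in the members. Cells with 15 or more such UMIs reached 11180 CPM for the G2/M list and 111 CPM for Ezh2. At the edges of M, 14 members with M of 9 to 10 had 6615 CPM of Elane, and 11 noncycling cells with M of 10 to 11 had 4644 CPM. At the low edge, 8 members with M of 0.5 to 0.6 had 8603 CPM of Elane and 15 noncycling cells with M of 0.4 to 0.5 had 6220 CPM.

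Differences from the other cells of the same range of M were mostly in 1 direction. Of 5388 genes that reached 20 CPM in one of the groups, 206 (3.82%) were at least 2-fold lower in the noncycling cells and 17 (0.316%) at least 2-fold higher. The median log2 ratio over all 5388 genes was -0.10, with quartiles of -0.31 and 0.11. Of these genes 37.95% had a ratio above 0. Ratios are on the log2 scale of CPM with 0.5 counts added. At matched depth 168 of 5333 genes (3.15%) were at least 2-fold lower and 2 (0.0375%) at least 2-fold higher. Of the 206 lower genes 172 stayed at least 2-fold lower there. This count of 172 has no 20 CPM minimum among the matched cells, unlike the 168. None of the 17 higher genes stayed at least 2-fold higher, although all 17 kept ratios above 0. The 2 genes that passed at matched depth, named after their values were seen, were 2310001H17Rik (23.1 and 10.4 CPM) and Cstdc4 (28.2 and 12.5 CPM), a stefin-like gene with close copies. The rule used this contrast, so these counts describe the selected cells and test nothing. Of the 206 lower genes, 59 were in the G2/M list, 17 in the G1/S and replication list, 5 were the rule genes, and 125 were in none of these, 8 of the 206 being histone genes.

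**Figure D2:**
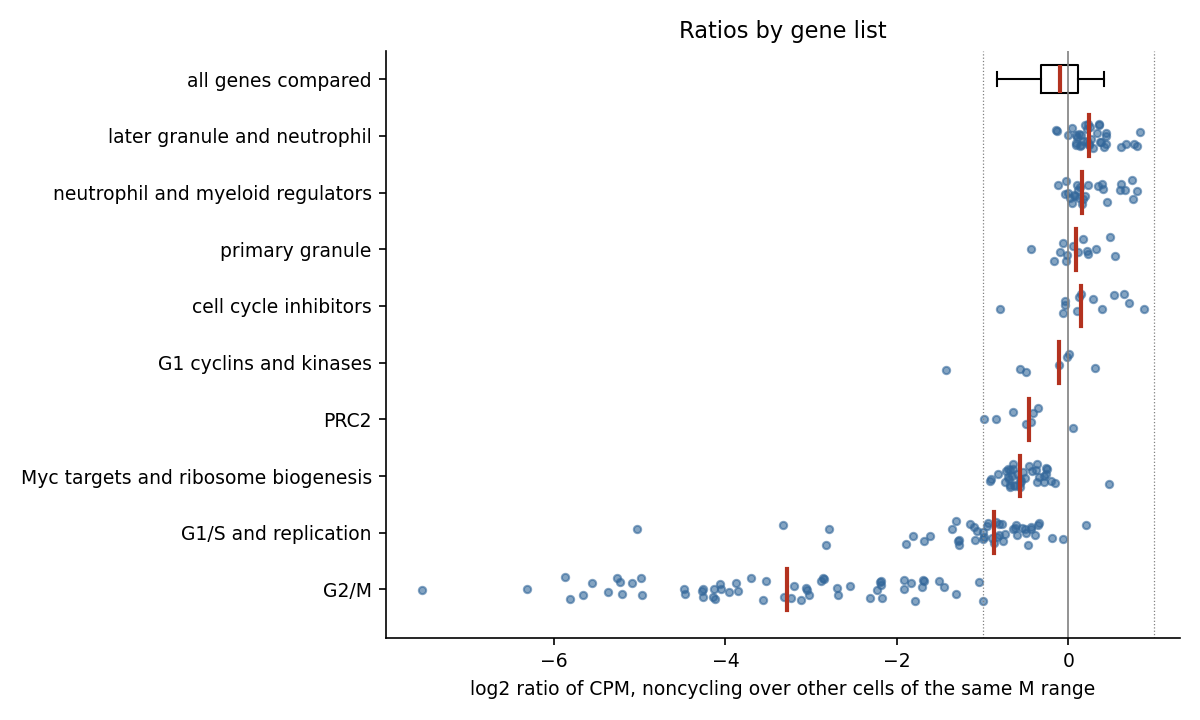
Log2 ratio of CPM (x axis), noncycling over other cells of the same M range, for each list gene with at least 20 CPM in either group (1 point per gene, scattered vertically within its list; the red line is the list's median). The box on top gives the median, quartiles and 5th to 95th percentiles of all genes compared; the G2/M list lies lowest, with a median of -3.28, followed by G1/S and replication at -0.86.

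Genes of mitosis were low in the noncycling cells, beyond the 5 genes that selected them. In the G2/M list 67 of 67 counted genes were lower, 59 of them at least 2-fold, with a median log2 ratio of -3.32 (-3.24 with the 2 genes at 0 counts set to the limit of 3 counts). Ccna2, the cyclin of S phase and G2, stood at 0.962 CPM from 4 counts (interval 0.262 to 2.46) against 86.4 CPM in the other cells. Nusap1, a spindle protein gene, stood at 1.20 CPM against 77.3 CPM, a log2 ratio of -5.87 (-7.63 to -4.78). Hmmr, a spindle assembly factor, stood at 1.20 CPM against 74.3 CPM, a log2 ratio of -5.81 (-7.57 to -4.73). Kif4, a chromosome-bound motor, had 0 counts against 22.3 CPM, which is 30.9-fold lower with 0 set to the limit of 3 counts. Some G2/M genes kept a clear level. Hmgb2, a chromatin protein, stood at 524 and 1869 CPM, Tubb4b, a tubulin, at 183 and 909 CPM, and Cks2, a binding partner of cyclin-dependent kinases, at 240 and 496 CPM. Ccnb2 (cyclin B2) kept 28.9 CPM against 130 CPM, while Ccnb1 (cyclin B1) had 3.85 against 126 CPM and Plk1 (Polo-like kinase) 1.92 against 75.6 CPM. The cyclin B2 transcript was kept further than that of cyclin B1. The median of the list at matched depth was -2.84.

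Promoters of this list were searched for 3 short letter patterns. In the RefSeq table of promoters (GRCm38.p6), 54 of the 68 listed G2/M genes had 60 entries. Of the 250 bases before the start in these entries, read on both strands, 46 (76.7%) held CCAAT, against 33.9% of 32851 entries of the table and 35.4% of the entries of genes compared here. CCAAT was also held by 31 of 52 entries of the G1/S list (59.6%) and by 53.2% of the entries of all genes at least 2-fold lower. At least 2 CCAAT were held by 46.7% of the G2/M entries, 32.7% of the G1/S entries and 10.1% of all entries. TTTGAA, the core of the cell cycle genes homology region, was held by 35.0% of the G2/M entries, 13.5% of the G1/S entries and 16.0% of all entries. TTCCCGC, an E2F core, was in none of the 60 G2/M entries, in 13 of 52 entries of the G1/S list and in 3.82% of all entries. Each pattern was counted on its own, also where matches of different patterns overlap, and a match is a description, not a bound site. The 4 windows below are the 200 bases before the start of a strongly lower and a partly kept G2/M gene (Hmmr, Ccnb2) and of a lower and a retained G1/S gene (Mcm7, Cdt1), picked after their values were seen. Capitals mark the 3 patterns on either strand. They lie at chr11:40733438-40733637 (minus strand, Hmmr), chr9:70421555-70421754 (minus, Ccnb2), chr5:138171267-138171466 (minus, the second of 2 entries of Mcm7) and chr8:122567815-122568014 (plus, Cdt1).
Hmmr: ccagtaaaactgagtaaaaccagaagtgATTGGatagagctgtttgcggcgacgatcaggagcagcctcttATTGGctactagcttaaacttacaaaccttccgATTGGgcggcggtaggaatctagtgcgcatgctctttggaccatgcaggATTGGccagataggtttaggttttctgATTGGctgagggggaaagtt
Ccnb2: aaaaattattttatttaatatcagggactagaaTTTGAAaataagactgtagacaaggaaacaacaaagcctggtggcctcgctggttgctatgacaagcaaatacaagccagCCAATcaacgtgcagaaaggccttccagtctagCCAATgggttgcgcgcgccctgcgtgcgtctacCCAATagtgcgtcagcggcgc
Mcm7: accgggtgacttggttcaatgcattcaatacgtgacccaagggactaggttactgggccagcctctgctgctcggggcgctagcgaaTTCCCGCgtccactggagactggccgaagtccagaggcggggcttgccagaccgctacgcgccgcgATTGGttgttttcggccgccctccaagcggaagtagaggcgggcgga
Cdt1: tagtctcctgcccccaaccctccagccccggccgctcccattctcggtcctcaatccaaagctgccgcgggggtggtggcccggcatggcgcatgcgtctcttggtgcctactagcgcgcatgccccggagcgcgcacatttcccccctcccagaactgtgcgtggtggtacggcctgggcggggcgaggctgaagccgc
The Hmmr window held 5 CCAAT patterns, all in the reverse orientation, and no TTTGAA. The Ccnb2 window held 3 CCAAT and 1 TTTGAA. The Mcm7 window held 1 CCAAT and 1 TTCCCGC, and the Cdt1 window held none of the 3.

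Genes of the G1/S transition and of DNA replication were lower too, but far less evenly. Of 58 counted genes 57 were lower and 17 at least 2-fold lower, with a median log2 ratio of -0.97. The lowest were genes of active S phase. Pclaf, a PCNA-binding factor, stood at 5.77 CPM against 192 CPM (log2 ratio -5.03, interval -5.70 to -4.48). Tk1, thymidine kinase, stood at 6.98 against 71.5 CPM, and Clspn, a replication checkpoint adaptor, at 5.29 against 38.3 CPM. Licensing genes lay closer than Pclaf, Tk1 and Clspn, but unevenly, from Cdt1 above 0 to Mcm7 more than 2-fold lower. Cdt1, which loads the MCM helicase in G1, was the 1 gene of the list above 0, at 51.2 CPM (44.6 to 58.6) against 44.3 CPM. Its log2 ratio was 0.21 in the full comparison and -0.07 at matched depth. The helicase subunit gene Mcm6 stood at 148 and 170 CPM (-0.19, and -0.49 at matched depth), Mcm2 at 46.2 and 63.9 CPM, Mcm3 at 65.9 and 103 CPM, Mcm5 at 62.8 and 110 CPM and Mcm7 at 59.4 and 127 CPM. Pole2, a polymerase subunit, stood at 23.6 and 24.6 CPM.

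Per cell, at 5000 UMIs each, the noncycling cells held a median of 9 UMIs of the G2/M list, against 38 in the other cells, and a median of 8 UMIs of the G1/S list, against 18. For G2/M the 2 populations were set apart by the selection, and 0 of 366 noncycling cells lay above the median of the other cells (upper limit 1.00%). For G1/S they overlapped. The noncycling cells ran from 1 to 41 UMIs with quartiles of 5 and 14, and 63 of them (17.2%, interval 13.5 to 21.5%) reached the other cells' median. A further comparison with their first quartile, 11 UMIs, was met by 135 cells (36.9%).

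**Figure D3:**
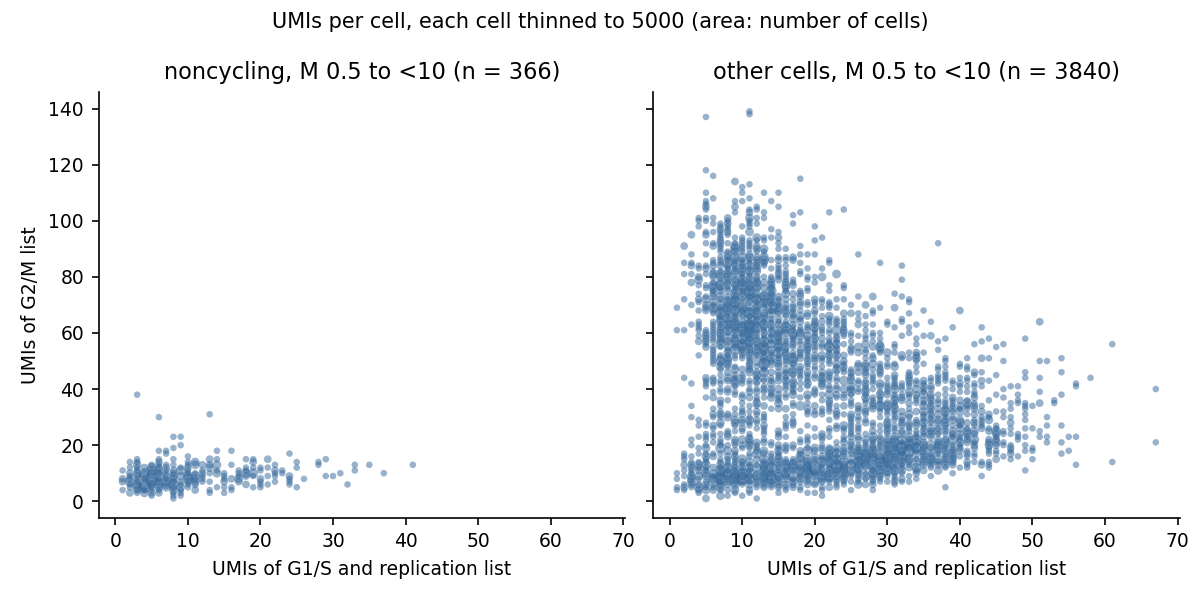
UMIs of the G1/S and replication list (x axis) and of the G2/M list (y axis) in each cell after thinning to 5000 UMIs, for the 366 noncycling cells and the 3840 other cells with M of 0.5 to below 10; the area of a point grows with the number of cells at that position. The noncycling cells lie along the bottom, at a median of 9 G2/M UMIs, and spread from 1 to 41 UMIs along the G1/S axis.

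The spread in G1/S transcripts was followed through the noncycling cells themselves. The 94 cells with 14 or more G1/S UMIs were set against the 112 cells with 5 or fewer, a split added after the data were seen. Depth and maturity did not separate them, with medians of 10873.5 and 11246.5 UMIs and of 2.82 and 2.81 for M. Listed G1/S genes differ by construction, among them Mcm5 at 128 and 15.4 CPM, Cdt1 at 92.6 and 21.95 CPM and Ccne1 (cyclin E1) at 26.5 and 3.25 CPM. Genes outside that list differed as well. Ezh2 stood at 70.9 CPM in the cells with many G1/S UMIs and 39.0 CPM in those with few (log2 ratio 0.86, interval 0.32 to 1.41), and its partner Rbbp7 at 102 and 60.2 CPM. Myc stood at 210 and 122 CPM (0.78, 0.48 to 1.09), and Ncl, nucleolin, at 905 and 562 CPM. Stmn1, a tubulin-binding protein, stood at 335 and 75.6 CPM and Lmnb1, lamin B1, at 83.2 and 16.3 CPM.

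Other genes were lower in the cells with many G1/S UMIs. The cell cycle inhibitor list had a median log2 ratio of -0.52. Leaving out G1/S, the other lists ran from -0.50 (retinoid response) to 0.60 (Myc targets and ribosome biogenesis). Immediate early genes had -0.40 and p53 targets -0.36, so the inhibitors did not stand alone. No median over all genes is given for this split. Cdkn1a, the p21 inhibitor, was at 82.2 CPM in the cells with many G1/S UMIs and 147 CPM in those with few (log2 ratio -0.84, -1.23 to -0.46). Btg2, an antiproliferative p53 target, was at 10.4 and 39.0 CPM (-1.86, -3.00 to -0.94). Cdkn1b, the p27 inhibitor, was at 19.8 and 13.8 CPM (0.51, -0.47 to 1.53), an interval that includes 0. Ier3, an early response gene, was at 24.6 and 66.7 CPM, and Neat1, a nuclear noncoding RNA, at 28.3 and 56.1 CPM. Malat1, another nuclear RNA and a sign of RNA quality, was at 1988 and 2923 CPM, and its part in these differences was not tested. Granule genes hardly differed. Elane was at 8959 and 9128 CPM and Cd177 at 220 and 223 CPM, while Cebpe, the factor that drives secondary granule genes, was at 382 and 476 CPM (-0.32, -0.51 to -0.13).

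The medians of G1 kinases and inhibitors lay between the quartiles of all genes, but single members stood far apart. The median log2 ratio of 13 G1 cyclins and kinases was -0.09, with 4 higher and 9 lower. The 30.8% above 0 lay near the 37.95% of all genes compared. Cdk6 stood at 312 and 314 CPM, Ccnd3 (cyclin D3) at 197 and 159 CPM (0.31, interval 0.20 to 0.41) and Cdk4 at 161 and 226 CPM (-0.49). Rbl1 (p107), itself an E2F target, was the lowest at 9.62 and 26.1 CPM (-1.42). Of 25 cell cycle inhibitors 13 were higher (52%) and 12 lower, where 37.95% of all genes compared had a ratio above 0. The median of the list was 0.10 (0.03 at matched depth), with none 2-fold apart among those with 20 CPM. Below that level lay the 2 lowest ratios of the list. Mxd3, of the Mxd family, had 1 count and stood at 0.24 CPM against 13.05 CPM (-5.18, interval -11.07 to -3.28). Cdkn2c (p18), an inhibitor of Cdk4 and Cdk6, had 4 counts and stood at 0.962 CPM against 8.41 CPM (-2.96, interval -5.01 to -1.76, and -2.90 at matched depth). Cdkn1a stood at 122 CPM (112 to 133) against 112 CPM, with a ratio of 0.13 whose interval of -0.01 to 0.26 includes 0. Cdkn1b (p27) stood at 16.4 and 18.4 CPM. The 4 highest of the list past 20 CPM were Mxd1 and Mxd4, antagonists of Myc, and the antiproliferative genes Tob1 and Btg2. Mxd1 stood at 35.4 and 19.3 CPM (0.88, 0.62 to 1.12), Mxd4 at 155 and 108 CPM (0.53), Tob1 at 48.8 and 30.0 CPM (0.71) and Btg2 at 27.7 and 17.7 CPM (0.65). At matched depth these 4 ratios were 0.76, 0.39, 0.28 and 0.43, and the interval of Tob1, -0.02 to 0.59, then includes 0. Cdkn2d (p19), which stood at 15.6 and 27.3 CPM, was the lowest inhibitor past 20 CPM (-0.79). Txnip, Pdcd4, Klf6 and Gadd45b had ratios of 0.29, 0.40, 0.15 and 0.10, and Tob2, Ccng1 and Mxi1 of -0.04, -0.04 and -0.06.

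Myc and its targets pointed in opposite directions. Myc stood at 172 CPM (160 to 186) in the noncycling cells and 124 CPM in the other cells, a log2 ratio of 0.47 (0.36 to 0.58), and 0.51 at matched depth. Of the 40 genes of the Myc target and ribosome biogenesis list, 39 were lower, with a median of -0.57, and Myc was the exception. Thus 2.5% of the list lay above 0, against 37.95% of all genes compared. At matched depth the median was -0.33. Odc1, the first enzyme of polyamine synthesis, stood at 110 and 206 CPM (-0.90), Cad, of pyrimidine synthesis, at 14.9 and 28.4 CPM (-0.92), the nuclear transport GTPase gene Ran at 783 and 1380 CPM (-0.82), and Nop56, a nucleolar protein, at 78.9 and 132 CPM (-0.74).

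Ezh2, on chromosome 6 (47530139 to 47595341, minus strand, GRCm38), stood at 51.7 CPM (45.0 to 59.1) in the noncycling cells and 102 CPM in the other cells. The log2 ratio was -0.98 (-1.19 to -0.79), and -0.93 at matched depth. Its level was alike at every stage of the range, at 49.8, 52.9, 55.1 and 45.8 CPM in the 4 bins of M, with overlapping intervals, and the other cells of those bins stood at 97.1 to 110 CPM. The other core subunits were lower by less. Suz12 stood at 70.7 and 111 CPM (-0.64), Eed at 21.2 and 29.9 CPM (-0.49) and the histone-binding subunit gene Rbbp7 at 79.2 and 142 CPM (-0.84). Jarid2, an accessory subunit, stood at 73.6 and 71.2 CPM (0.05, interval -0.12 to 0.21), and Ezh1, the second methyltransferase, at 8.90 and 8.92 CPM. Over 12 counted PRC2 genes 9 were lower, with a median of -0.42 against -0.10 over all genes. The 25% above 0 lay not far from the 37.95% of all genes compared.

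Granule and neutrophil genes set the noncycling cells only slightly apart from cycling cells of the same M. The 14 primary granule genes had a median of 0.09, with 8 higher (57.1%) and 6 lower. Elane stood at 9238 and 8883 CPM, Prtn3, a related protease, at 3396 and 3138 CPM and Ctsg (cathepsin G) at 6506 and 6958 CPM. Ms4a3, a membrane protein of dividing granulocyte precursors, was lower at 1779 and 2396 CPM (-0.43). Lyz2 (lysozyme), Igsf6 and Clec12a were higher, with ratios of 0.49, 0.55 and 0.32. Of 53 later granule and neutrophil genes 45 were higher (84.9%), where 37.95% of all genes compared had a ratio above 0. At matched depth these shares were 79.25% and 38.96%. The median of the list was 0.23 (0.16 at matched depth), against -0.10 for all genes. Of the 53 genes 36 reached 20 CPM, with a median of 0.24. Ltb4r1, the leukotriene B4 receptor, stood at 172 and 96.1 CPM (0.84), Mgst1, a glutathione transferase, at 249 and 143 CPM (0.81) and Ncf1, an oxidase subunit, at 109 and 64.6 CPM (0.76). The 6 genes that define M differed little, since M was held in 1 range, with Camp at 11012 and 9712 CPM and S100a9 at 6754 and 6352 CPM.

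Transcription factors of the granulocyte line were higher more often than lower, 31 of 37 against 6 (83.8%), where 37.95% of the 5388 genes compared had a ratio above 0. Their median of 0.21 was 0.08 at matched depth, where 62.2% were above 0, against -0.10 and -0.07 over all genes. The 37 had at least 10 counts over both groups, while the 5388 had to reach 20 CPM, so the 2 shares differ in threshold. Of the 37, 26 reached 20 CPM, with a median of 0.16. Cebpe stood at 442 and 280 CPM (0.66, 0.59 to 0.73), Cebpa, which halts progenitor division, at 64.2 and 38.5 CPM (0.74) and Cebpd at 293 and 192 CPM (0.62). The AP-1 genes Junb and Jund stood at 38.7 and 22.3 CPM and at 170 and 101 CPM. At matched depth the ratios of Cebpe, Cebpa, Cebpd, Junb and Jund were 0.30, 0.46, 0.34, 0.57 and 0.58. In the 4 bins of M, Cebpe stood at 291, 379, 464 and 572 CPM in noncycling cells and at 220, 236, 286 and 379 CPM in the other cells, so that it increased with M in both and lay higher in the noncycling cells of each bin.

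The 17 higher genes were of varied function and mostly low in level. Lair1, an inhibitory collagen receptor, stood at 32.2 and 9.66 CPM (1.74, interval 1.46 to 2.01), and 0.97 at matched depth. Ltb (lymphotoxin beta, chromosome 17, 35194439 to 35196320, plus strand) stood at 79.4 CPM (71.1 to 88.4) and 28.1 CPM (1.5, 1.33 to 1.67), and 0.82 at matched depth. Ypel3, a growth-suppressive gene induced by p53, stood at 89.3 and 33.1 CPM (1.43, and 0.67 at matched depth). Tcp11l2 stood at 52.7 and 21.8 CPM (1.28, and 0.81), and Dok3, an adaptor that dampens myeloid signalling, at 67.4 and 33.4 CPM (1.02, and 0.59). The others included Snhg11, Aldoc, Evi2a, Rgs2, Lst1, Glod5, Neat1, Cyp11a1, Gapt, Kdm5b and Smim3, with ratios from 1.00 (Smim3) to 1.33 (Snhg11). Below the 2-fold line, the next among genes past 50 CPM were Prr13 at 269 and 143 CPM (0.91), Ifi27l2a (0.87), Ltb4r1, Pnrc1 (0.84), Flot1 (0.82), Fcgr3 at 92.4 and 52.6 CPM (0.82), Krt18 (0.81), Mgst1, Sat1 (0.80), Cd33 (0.80) and Glipr1 (0.79). These were lower again at matched depth, from 0.34 (Krt18) to 0.63 (Pnrc1).

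Outside the cycle lists, the lowest genes included histone, spindle and kinetochore genes. Hist1h1b, a linker histone gene, stood at 2.65 and 156 CPM (-5.81), Hist1h2ae at 2.41 and 51.0 CPM and Hist1h1e at 17.1 and 75.7 CPM. Kif15, a spindle motor, stood at 1.20 and 50.1 CPM, Knl1, a kinetochore scaffold, at 3.85 and 67.6 CPM and Fbxo5 (Emi1), an inhibitor of the anaphase-promoting complex, at 3.85 and 56.7 CPM. Asf1b, a histone chaperone, stood at 17.1 and 90.02 CPM and Cenpm, a centromere protein, at 24.1 and 95.4 CPM. The tubulin genes Tubb5 and Tuba1b stood at 201 and 793 CPM and at 104 and 409 CPM. Dbf4, Rangap1, Lockd, Incenp and Stmn1 had ratios of -1.93, -1.89, -1.87, -1.72 and -1.64.

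The medians of the other lists lay between 0.01 and 0.38, against -0.10 over all genes. Above 0 lay 76.2% of the immediate early and 92.9% of the S100 and annexin genes, against 37.95% of all genes compared. Immediate early genes had a median of 0.38 over 21 genes, 16 of them higher and a median of 0.29 at matched depth, with Nfkbia, the NF-κB inhibitor, at 108 and 71.3 CPM (0.61, and 0.37 at matched depth). S100 and annexin genes outside M had 0.25, with 13 of 14 higher, sorted antigen genes 0.32 (0.20 at matched depth), lysosome and autophagy genes 0.19, led by Ctsh (0.97) and Map1lc3a (0.81), and interferon response genes 0.19, led by Slfn2 at 46.2 and 23.8 CPM (0.96). Cytokine receptors had 0.10, p53 targets 0.12 with Bbc3 (Puma) at 22.9 and 12.6 CPM (0.86), and Bcl2 family genes 0.01. Glycolysis genes had 0.01, with Aldoc the 1 member past 2-fold. Progenitor genes had 0.11 (0.02 at matched depth), with Myb at 200 and 164 CPM (0.29, and 0.05 at matched depth). Retinoid response genes had 0.12 over 15 counted genes, 2 of which passed 20 CPM, Ripk3 (-0.38) and Rxrb (0.09). NADPH oxidase genes had 0.16 (0.14 at matched depth). Migration and egress genes had 0.16, but -0.004 at matched depth, where the median over all genes was -0.07. Among them Itgb2, an integrin, stood at 56.3 and 39.3 CPM (0.52). Cxcr4, the marrow-retention receptor, stood at 97.4 and 76.6 CPM (0.35, and 0.04 at matched depth).

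Within the noncycling cells levels were followed along M. Bins of M set less and more mature cells apart by construction, so the values are descriptions. Between the 85 cells with M of 5 to 10 and the 52 cells with M of 0.5 to 1, 210 of 5527 genes were at least 2-fold higher and 182 at least 2-fold lower. These include genes close to the ones that set M. Stfa1, a stefin, had 64 counts against 1, and C5ar1, the complement C5a receptor, stood at 77.5 and 3.35 CPM. Olfm4 (olfactomedin 4) stood at 1284 and 105 CPM, Ly6g at 173 and 26.8 CPM, Retnlg, a resistin-like gene, at 69.3 and 8.37 CPM and Cd177 at 438 and 102 CPM. Lower in the more mature cells were Phgdh, of serine synthesis, at 52.8 and 161 CPM (-1.60, -2.15 to -1.08), Dmkn at 25.8 and 97.1 CPM and Frat2, of Wnt signalling, at 29.3 and 97.1 CPM. Ccnb2 stood at 4.70 and 50.2 CPM. Ltb stood at 59.8, 55.9, 87.5 and 103 CPM in the 4 bins, and at 12.9, 19.3, 31.1 and 47.8 CPM in the other cells. Cdt1 showed no order along M, with 38.2, 61.9, 50.2 and 50.1 CPM.

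**Figure D4:**
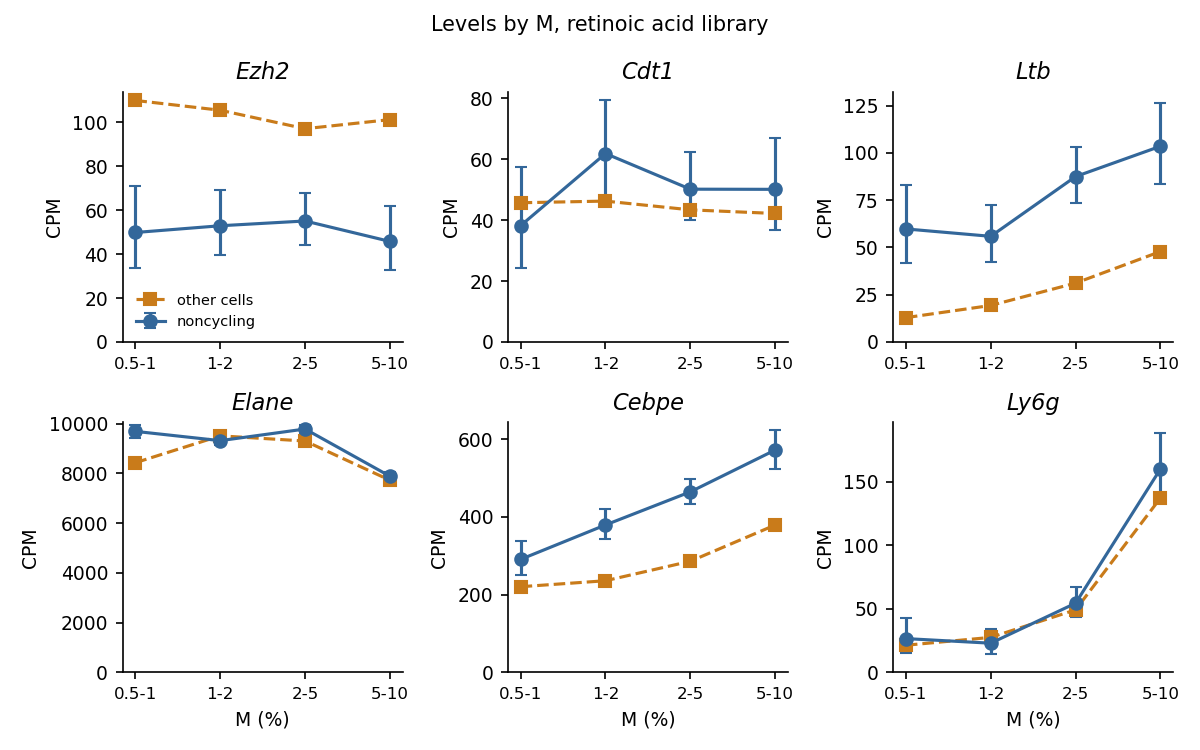
CPM (y axis) of Ezh2, Cdt1, Ltb, Elane, Cebpe and Ly6g in the 4 bins of M (x axis, %) for noncycling cells (blue, exact Poisson intervals) and other cells (orange). Ezh2 lies at 45.8 to 55.1 CPM in the noncycling cells and 97.1 to 110 CPM in the other cells in every bin, while Cebpe and Ltb lie higher in the noncycling cells and increase from the second bin on.

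The 366 cells were also set against the 543 noncycling cells of M 10 or more. Since M splits these groups, their difference in maturity follows from the selection, and the values describe its size. With the 6 genes of M taken out of the totals, 308 of 5539 genes (5.56%) were at least 2-fold higher in the 366 cells and 519 (9.37%) at least 2-fold lower. On that scale Ly6g stood at 68.5 CPM against 3843 CPM, and Retnlg at 25.9 against 3524 CPM. Mmp9, a gelatinase, had 0 counts against 54.0 CPM before that correction. Higher in the 366 cells were Phgdh (log2 ratio 3.19, 2.72 to 3.72), Ctsg (3.01), Mcpt8 (2.67), Srgn, the granule proteoglycan serglycin (2.52), and Elane (2.15). All 40 Myc target and ribosome biogenesis genes lay above 0, with a median of 1.03. Myc stood at 178 CPM and at 77.0 CPM in the mature cells. Several genes that were higher in the 366 cells than in cycling cells were higher again in the mature noncycling cells, with Ltb at 82.2 and 338 CPM, Tcp11l2 at 54.5 and 244 CPM, Dok3 at 69.7 and 239 CPM and Mxd1 at 36.6 and 203 CPM. Cycle genes were less far apart. Cdt1 stood at 53.02 and 42.7 CPM, Mcm5 at 65.0 and 50.6 CPM and Ezh2 at 53.5 and 38.2 CPM, and the per-cell medians of the G1/S list were 8 and 5 UMIs. The 2 groups differ in depth, with medians of 11253.5 and 8125 UMIs, and were not matched for it.

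The same contrast was taken in the vehicle library over all values of M. Between its 1756 noncycling and 3390 cycling cells, 313 of 5471 genes (5.72%) were at least 2-fold lower and 87 (1.59%) at least 2-fold higher. Of the 206 genes lower in the retinoic acid cells, 200 were at least 2-fold lower here and 205 below 0, the exception being Hist1h1c (0.22). Of the 17 higher genes, 10 were at least 2-fold higher and all 17 above 0. Both libraries were split by the same 5 rule genes. Those 5 are among the 206 and stand at 0 in vehicle noncycling cells by selection, so these counts test nothing. The median log2 ratio over all 5471 vehicle genes was -0.17, and their share on each side of 0 is not given. Ltb stood at 70.8 and 22.7 CPM, Ypel3 at 172 and 67.1 CPM and Dok3 at 70.6 and 34.1 CPM. The G1/S list differed in size. Its median was -2.04 in the vehicle library and -0.97 in the retinoic acid cells, and the per-cell medians of noncycling cells were 4 and 8 UMIs. Cdt1 stood at 11.6 CPM (10.3 to 13.1) in vehicle noncycling cells and 38.0 CPM in vehicle cycling cells. Mcm5 stood at 11.2 and 82.1 CPM, Mcm6 at 67.4 and 142 CPM and Ezh2 at 19.5 and 69.4 CPM. In the 73 vehicle noncycling cells with M of 0.5 to 10, Cdt1 stood at 11.2 CPM (5.36 to 20.5), Mcm5 at 15.6 CPM and Ezh2 at 15.6 CPM (8.55 to 26.2), against 51.2, 62.8 and 51.7 CPM in the retinoic acid cells. The intervals of Cdt1 and Ezh2 do not overlap between the libraries, but each side is 1 library, and treatment, mouse and preparation cannot be told apart. Vehicle noncycling cells were deeper, with a median of 13073.5 UMIs. Cdkn1a showed a larger contrast in the vehicle library, at 215 and 114 CPM, and Elane stood at 26.1 CPM in vehicle noncycling cells against 9238 CPM in the retinoic acid cells.

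**Figure D5:**
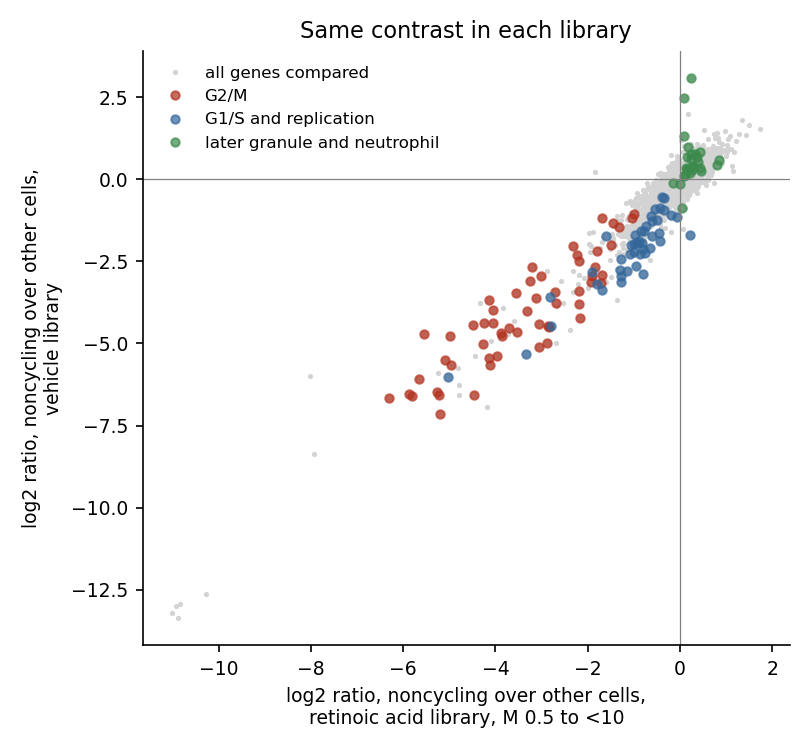
Log2 ratio of CPM, noncycling over other cells, in the retinoic acid library at M of 0.5 to below 10 (x axis) and in the vehicle library (y axis), 1 point per gene with at least 20 CPM in either group of each library. G1/S genes (blue) lie lower on the vehicle axis, with medians over the counted list genes of -2.04 against -0.97, and G2/M genes (red) lie far below 0 in both.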

How the data were processed

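Single-cell RNA was measured in 2 libraries, 1 per group. Each deposited matrix holds unnormalised UMI counts for 32285 gene IDs. Per the file headers, Cell Ranger 4.0.0 made the matrices. The submitters' processing notes name mm10 and GRCm38.p4, without their role. The totals were 110443779 UMIs in the retinoic acid matrix and 99679545 in the vehicle matrix.

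Counts were summed over cells of a group and given as CPM. Genes with at least 20 CPM in either group were compared and called at a 2-fold ratio. A further 411 retinoic acid barcodes with 5000 UMIs or more had under 0.1% mitochondrial UMIs and were left out. Sums carry exact Poisson intervals, ratios exact conditional binomial intervals and shares Clopper-Pearson intervals, all at 95%. Since UMIs mark molecules, counts are not PCR copies, but intervals do not cover differences between mice or preparations. For fold limits a count of 0 was set to 3 counts, which is less than the upper end of its exact interval. List medians, shares above 0 and counts of higher or lower members cover members with at least 10 counts over both groups. Medians and shares over all genes cover genes with at least 20 CPM in either group. Of 674 list symbols 6 were not matched, and 38 symbols carry several IDs. Ly6c1 with Ly6c2, and stefin genes, have close copies between which counting could split reads.

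The members and gene lists were chosen with earlier results of these data known. Genes named were Ezh2, the rule and sorted antigen genes, cell cycle inhibitors past 20 CPM, the 15 highest and 15 lowest ratios past 50 CPM (the lowest outside the cycle lists) and the 4 largest ratios of each list. Other genes were named after their values were seen, and some that the rule names are not reported here. Depth matching drew 1 cell per member in bins of 0.05 log10 UMIs. Doublets were not removed; leaving out the highest 5% of Scrublet scores (scanpy 1.11.5) was an alternative. Positions come from GENCODE M21, which matched 32158 IDs. The calculation was tested on simulated data. Python 3.11.15, numpy 2.4.6 and scipy 1.17.1 were used.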

Additional observations from a re-analysis of the deposited data

Results flagged for a closer look

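Ifngr1, the gene of an interferon gamma receptor chain (chromosome 10, 19591949 to 19610229), had ratios on opposite sides of 0 in the 2 libraries. In the retinoic acid library it stood at 273 CPM in the 366 noncycling cells and 220 CPM in the other cells, a log2 ratio of 0.31 (interval 0.22 to 0.40). In the vehicle library it stood at 142 CPM in noncycling and 166 CPM in cycling cells, a ratio of -0.22. At matched depth the retinoic acid ratio was 0.11. The difference between the libraries was not tested, since each is 1 sample.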

How the results depend on the processing

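Of 580 values recomputed under alternatives, 154 of the main results' values moved by less than their spread and 26 by more; among single genes 302, 95 and 3 reversals. The count of higher genes, 17, was 2 at matched depth, 5 matched on depth and M, 1 with depth weights, 5 with the rule on thinned counts, 27 with the stricter rule (also 0 UMIs of Ube2c, Cdca8, Tyms, Tk1 and Pclaf), 30 against comparison cells with at least 15 rule UMIs, 91 at 5 CPM, 0 at 100 CPM and 3844 with no minimum. The count of lower genes, 206, was 360, 50 and 767 at those 3 minima. The G2/M median was -2.84 at matched depth, -2.77 matched on depth and M (-2.80 with Pimreg, which fell under 10 counts there), -2.77 on thinned counts and -2.83 with depth weights. The Myc target and ribosome biogenesis median was -0.33, -0.36, -0.33 and -0.28 in that order, and the G1/S median -0.50 on thinned counts. Ezh2 was -0.75 on thinned counts and -1.24 with the stricter rule. The share of members was 17.9% on thinned counts, 4.803% with the stricter rule and 7.79% at 8000 UMIs. Reversed ratios were Cdt1 at matched depth (-0.0659) and Mcm6 on thinned counts (0.13) and against cells with at least 15 rule UMIs (0.0398). The cause was not tested, beyond the minima, which set how many genes are compared. With no minimum, the 0.5 counts added also raise the ratios of genes with very few counts. The summed UMIs of the noncycling cells are far below those of the other cells. Such a gene can therefore pass 2-fold higher with 0 counts in the noncycling cells, and the 3844 include genes of this kind. Depth weights and the 15-UMI limit were chosen after seeing the data. Ltb stayed above 0 in all 16 alternatives, from 0.75 to 1.99, and Ezh2 below 0, from -1.24 to -0.75. TMM scaling shifted all ratios by -0.03. At the depth of the members the limit of 3 counts is 0.722 CPM, and the exact interval of 0 counts reaches 0.887 CPM. No paired analysis was possible because there was 1 library per group.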
